A study of Mus musculus with 6 samples.

Results

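The genes described here are 38 genes of mitosis and the spindle, which encode mitotic cyclins and kinases, the spindle checkpoint, kinetochore proteins, kinesins and cytokinesis factors. They are a list of symbols grouped by role; the rule uses no measured value, although the list was drawn up with earlier results of these data known. All 38 symbols were found in the deposited table of 35178 symbols, on 1 line each, and all 38 were among the 13721 genes with enough reads to be tested. Levels are given as CPM, counts per 1 000 000 reads after TMM scaling of library sizes. The lowest level of any of them in any library was 36.5 CPM, for Cdc25c in KO replicate 1, so the filter on low counts removed none.

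RNA was sequenced from Ter119-positive cells of the mouse spleen. Ter119 is a surface marker of red cells and their nucleated precursors. The Nrf2 KO group held 3 libraries from mice with sickle cell disease and a knockout of Nrf2, the transcription factor encoded by Nfe2l2 that drives antioxidant response genes. The Nrf2 WT group held 3 libraries from mice with sickle cell disease and wild-type Nrf2. Animals of both groups were 2 to 3 months old, on a mixed background of B6;129P2. The labels name neither the sickle cell alleles nor the Nrf2 allele and its deleted part. The labels do not say whether the libraries of a group are separate animals; p-values therefore describe only how these libraries differ, a spread that may be technical in part.

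A cell enters mitosis when Cdk1 bound to cyclin B is activated, and the Polo and Aurora kinases then help to build the spindle. Kinetochores tie the chromosomes to spindle microtubules, and the checkpoint restrains the anaphase-promoting complex until every chromosome is attached. The complex, activated by Cdc20, then marks securin and cyclin B for destruction, the sister chromatids part and the cell divides. Many of these genes are transcribed together late in the cell cycle, through MuvB complexes (with B-Myb and FoxM1, or as the repressive DREAM complex) at cell cycle homology region (CHR) elements and through NF-Y at CCAAT boxes. Erythroblasts divide while they fill with hemoglobin, then leave the cycle and lose the nucleus, and the mouse spleen makes red cells in anemia. In bulk RNA of such a mixture, fewer dividing cells and less transcript per dividing cell cannot be told apart.

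Counted reads came to between 16364199 and 21355269 in KO libraries and between 16664802 and 21712608 in WT libraries. The mitochondrial genome took 1.71% to 3.34% in KO and 1.81% to 3.90% in WT. The quinone oxidoreductase Nqo1, a classical Nrf2 target, had 11.5, 14.1 and 18.2 CPM in KO replicates 1, 2 and 3 and 50.7, 53.8 and 81.5 CPM in WT replicates 1, 2 and 3 (log2 KO over WT -2.09, SE 0.223, adjusted p = 0.0301 by edgeR). Nfe2l2 itself had 63.4 to 76.8 CPM in KO and 71.0 to 98.7 CPM in WT (log2 -0.23, SE 0.140, adjusted p = 0.556 by edgeR), and its reads may lie outside the deleted part. The KO group was split by sex-linked transcripts. Xist, the RNA of the inactive X chromosome, was low in KO replicates 1 and 2 (15.4 and 0.674 CPM), but reached 860.1 CPM in KO replicate 3 and 807 to 1248 CPM in WT. Chromosome Y genes together reached 206 and 260.4 CPM in KO replicates 1 and 2, 4.35 CPM in KO replicate 3 and at most 0.309 CPM in WT. KO replicate 3, the KO library with Xist, is therefore also given alone against WT.

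All 38 mitosis and spindle genes had a lower fitted level in KO than in WT, by a median log2 change of -0.22 (quartiles -0.28 and -0.14). The median over all 13721 genes was 0.02, and 47.1% of them had a change below 0. None of the 38 passed an adjusted p under 0.05 in edgeR's quasi-likelihood test (Benjamini-Hochberg over all genes tested), where 0.0219% of all genes did. At an unadjusted p under 0.05, 14 of the 38 were lower in KO, against 5.98% of all genes, and 0 were higher, against 6.25% of all genes. DESeq2 called 3 of the 38, all lower, where 3.6% of the 8134 genes it gave an adjusted p were called lower, and limma-voom called 0. The 3 were Pttg1, Ube2c and Spc25, which also had the lowest p of the 38 by edgeR. By DESeq2 all 38 had a change below 0, against 50.1% of all genes, and 16 were lower at an unadjusted p under 0.05, against 7.11%. In 16 of the 38, every KO library was below every WT library, as in 7.91% of all genes. In 0 was every KO library above every WT library, against 10.3% of all genes.

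The KO libraries did not stand equally low. Relative to the WT mean, the median log2 level of the 38 genes was -0.31, -0.06 and -0.28 in KO replicates 1, 2 and 3, and -0.02, 0.07 and -0.04 in WT replicates 1, 2 and 3. KO replicates 1 and 3 were both below the WT mean for 38 of 38 genes, as in 34.5% of all genes. KO replicate 2 was below the WT mean for 30 and above it for 8, against 50.9% of all genes above it. KO replicates 1 and 3 were both below every WT library for 34 of the 38, as in 15.7% of all genes, and the 4 exceptions were Cdc20, Cks2, Kif20a and Mad2l1. KO replicate 2 was the highest KO library for 30 of the 38, as in 36.1% of all genes. Summed over the 38 genes, the level was 12760, 15882 and 13325 CPM in KO and 15982, 16842 and 15928 CPM in WT, so KO replicate 2 lay just under the lowest WT library. Mki67 alone had 5382 CPM of the sum in KO replicate 2, its highest library. Without Mki67 the sums were 9082, 10500 and 9165 CPM in KO and 11222, 11693 and 11086 CPM in WT.

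**Figure D1:**
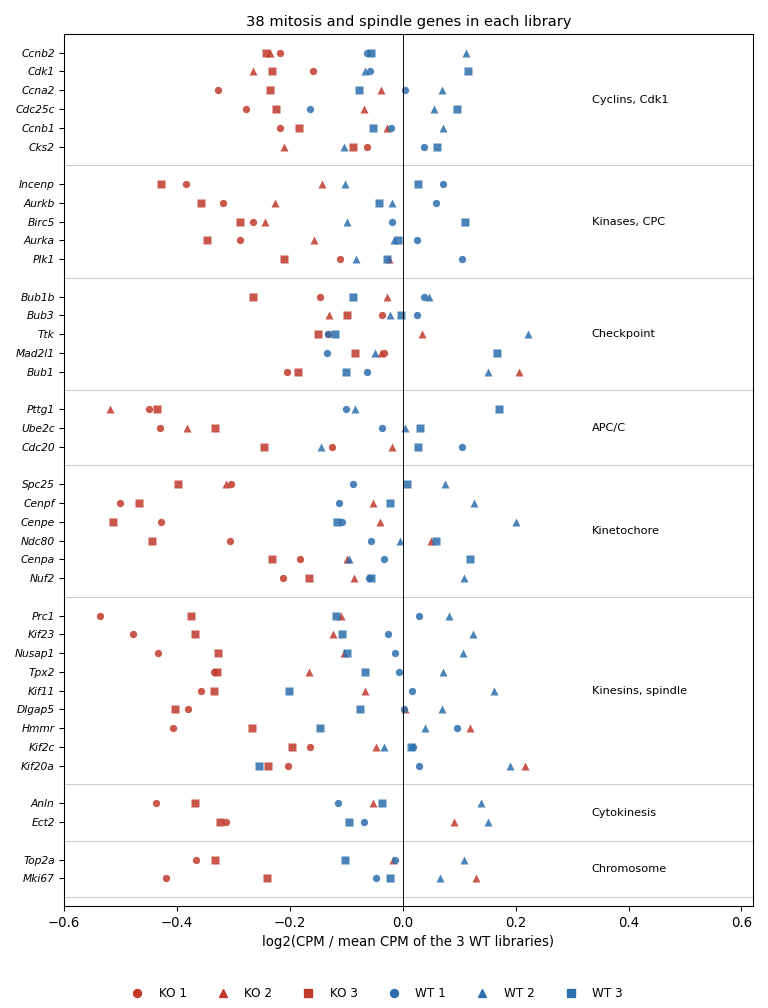
Level of each of the 38 genes in each library, as log2 of its CPM over the mean CPM of the 3 WT libraries, grouped by role (CPC, chromosomal passenger complex). Red marks are KO and blue marks WT, with a circle, triangle or square for replicates 1, 2 and 3. The red circles and squares lie left of 0 in every row, and the red triangle of KO replicate 2 is the rightmost red mark in 30 rows, all but those of Pttg1, Ube2c, Spc25, Ccnb2, Cdk1, Cks2, Bub3 and Mad2l1.

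Without KO replicate 2 the median log2 change was -0.33, and 22 of the 38 were lower at an unadjusted p under 0.05, where 7.66% of all genes were. None of the 38 then passed an adjusted p under 0.05 by edgeR, where 0.00709% of all genes did, and all 38 were lower, against 49% of all genes. When KO replicate 3 alone was set against WT, and the spread was that of the remaining libraries, the median was -0.28 and 38 of 38 were lower, against 46.7% of all genes. There 8 of the 38 were lower at an unadjusted p under 0.05, where 4.35% of all genes were lower. At an adjusted p under 0.05 by edgeR 0 of the 38 were lower, where 0.0146% of all genes were lower. With library totals in place of TMM, all genes had a median of 0.15 and the 38 a median of -0.09. On that scale 30 of 38 were lower, against 30.6% of all genes. At an unadjusted p under 0.05, 2 were lower, against 2.56% of all genes, and 0 higher, against 15.7%. By edgeR 0 of the 38 were called, where 0.0656% of all genes were called lower and 0.175% higher. The median of the 38 relative to that of all genes was -0.24 on either scale. A change of scale shifts all genes nearly alike, so this value is not a check of the scaling. With another single library left out, the number of the 38 that were lower at an unadjusted p under 0.05 was 7 without KO replicate 1 (5.72% of all genes), 4 without KO replicate 3 (4.66%), 7 without WT replicate 1 (5.07%), 7 without WT replicate 2 (4.84%) and 12 without WT replicate 3 (5.25%).

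Promoter sequences from RefSeq (mouse build GRCm38.p6, which is mm10) were at hand for 31 of the 38 genes, from 250 bases before to 50 after each annotated start. Those of Ube2c and Spc25, among the members with the lowest p, and of Cdk1 and Top2a are printed to show the shared elements. The window of Pttg1, the member with the lowest p, held no match to any element searched and is not printed. Each line gives 200 bases, from 209 to 10 before the RefSeq start, written 5′ to 3′ along the gene. Capitals mark the letters TTTGAA or TTCGAA (a minimal form of the CHR element) and CCAAT (the NF-Y box) on either strand, so that TTCAAA and ATTGG are matches of the other strand. The positions are chr2:164769720-164769919 (plus strand) for Ube2c, chr2:69206223-69206422 (minus strand) for Spc25, chr10:69352922-69353121 (minus strand) for Cdk1 and chr11:99024199-99024398 (minus strand) for Top2a.
Ube2c: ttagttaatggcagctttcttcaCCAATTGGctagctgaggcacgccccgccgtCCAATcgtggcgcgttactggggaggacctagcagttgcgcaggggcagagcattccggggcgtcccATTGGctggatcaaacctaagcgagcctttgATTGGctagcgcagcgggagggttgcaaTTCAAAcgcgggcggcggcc
Spc25: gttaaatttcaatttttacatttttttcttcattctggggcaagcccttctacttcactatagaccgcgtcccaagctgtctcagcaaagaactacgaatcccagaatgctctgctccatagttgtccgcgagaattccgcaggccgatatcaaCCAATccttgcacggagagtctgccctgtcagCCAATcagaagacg
Cdk1: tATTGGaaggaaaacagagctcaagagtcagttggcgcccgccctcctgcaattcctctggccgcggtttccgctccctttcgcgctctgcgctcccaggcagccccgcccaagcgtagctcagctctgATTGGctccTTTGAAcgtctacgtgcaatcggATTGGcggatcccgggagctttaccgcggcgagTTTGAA
Top2a: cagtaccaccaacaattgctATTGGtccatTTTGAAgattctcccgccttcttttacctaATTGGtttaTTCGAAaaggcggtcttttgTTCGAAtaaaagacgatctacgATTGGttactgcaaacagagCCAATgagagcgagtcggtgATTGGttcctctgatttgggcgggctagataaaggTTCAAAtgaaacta
The Ube2c stretch holds 1 CHR match and 5 CCAAT matches, with a pair that overlaps as CCAATTGG. The Spc25 stretch holds 2 CCAAT matches, and the gene's CHR match lies in the part of the window not printed. The Cdk1 stretch holds 2 CHR and 3 CCAAT matches, and the Top2a stretch 4 and 5.

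A CHR match was present in the window of 23 of the 31 genes (74.2%), against 16.4% of the 9873 tested genes with a window. A CCAAT match was likewise present in 23 (74.2%), against 42.6%, and both elements in 20 (64.5%), against 6.83%. At least 2 CCAAT matches were found in 17 genes (54.8%), against 16.3%. An E2F site, searched with the letters TTCCCGC and also with TTGGCGC and also with TTCGCGC and also with TTGCCGC, was found in 5 genes (16.1%), against 19.1%. The core of the antioxidant response element bound by Nrf2, TGACNNNGC, was found in 6 (19.4%), against 17.2%, and these were Anln, Bub1, Ccnb1, Cenpe, Ect2 and Spc25. The median log2 change was -0.22 in the 23 genes with a CHR match and -0.21 in the 8 without, and -0.22 in the 6 with the antioxidant response element core and -0.22 in the 25 without. It was -0.17 in the 23 with a CCAAT match and -0.24 in the 8 without, and -0.17 in the 5 with an E2F site and -0.23 in the 26 without. These medians are descriptions and were not tested. Matches on opposite strands were counted separately, and a match of letters is not a measured binding site. In 27 of the 34 windows of these 31 genes the RefSeq start lay within 50 bases of the GENCODE M21 start. It lay 3867 bases inside the GENCODE gene for Kif2c, 270 for Pttg1, and 148 and 272 for 2 windows of Bub3. For Cenpa and Ccnb1 it lay 109 and 84 bases inside, and for Mad2l1 169 bases before the GENCODE start.

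**Figure D2:**
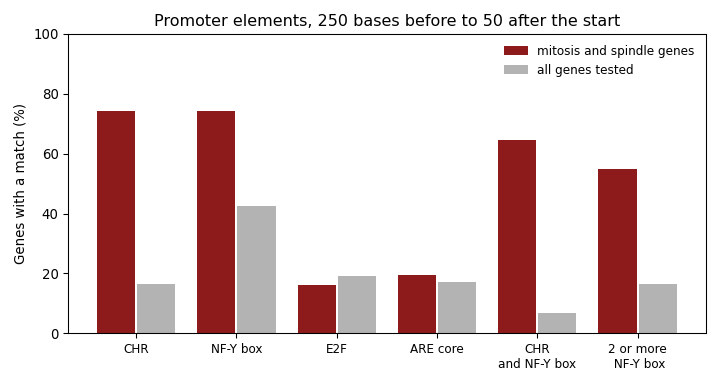
Share of genes, in percent, whose RefSeq window from 250 bases before to 50 after the start holds each element on either strand, for the 31 mitosis and spindle genes with a window (dark red) and for the 9873 tested genes with a window (grey). NF-Y box stands for CCAAT and ARE core for the antioxidant response element core. The CHR bar stands at 74.2% against 16.4%, and the E2F bars at 16.1% and 19.1%.

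Mitotic cyclins, Cdk1 and its activators were lower in KO by a median log2 of -0.19 over 6 genes. Cdk1, the kinase that starts mitosis, had 272, 253 and 259 CPM in KO replicates 1, 2 and 3 and 292, 290.3 and 329.6 CPM in WT replicates 1, 2 and 3. All 3 KO libraries were below all 3 WT libraries, and KO replicate 2 was the lowest (log2 -0.22, SE 0.102, unadjusted p = 0.0550 and adjusted p = 0.417 by edgeR). Ccnb2, a cyclin B that activates Cdk1, had 329, 325 and 324 CPM in KO and 366, 414 and 368 CPM in WT. The KO values lay close together and under every WT value (log2 -0.23, SE 0.0999, unadjusted p = 0.0406 and adjusted p = 0.384 by edgeR). Ccnb1, the other main cyclin B, had 286, 326 and 292 CPM in KO and 327, 349 and 319.7 CPM in WT, and KO replicate 2 fell inside the WT range (log2 -0.14, adjusted p = 0.640 by edgeR). Ccna2, the cyclin of S phase and early mitosis, had 552, 673 and 588 CPM in KO and 694, 726 and 656 CPM in WT, with KO replicate 2 again inside the WT range (log2 -0.20, adjusted p = 0.523 by edgeR). The Cdk-binding protein Cks2 and the phosphatase Cdc25c, which removes inhibitory phosphates from Cdk1, had log2 changes of -0.12 and -0.19 with overlapping groups.

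Mitotic kinases and the chromosomal passenger complex had a median log2 of -0.27 over 5 genes. The KO libraries were all below the WT libraries in 4 of them, as in 7.91% of all genes. The passenger complex joins the kinase Aurkb to the scaffold Incenp and to survivin, encoded by Birc5, and corrects faulty attachments at centromeres. Aurkb had 167, 178 and 163 CPM in KO and 217, 206 and 203 CPM in WT. Every KO library lay below every WT library (log2 -0.30, SE 0.096, unadjusted p = 0.00963 and adjusted p = 0.253 by edgeR). Incenp had 358, 423 and 347 CPM in KO and 491, 435 and 476 CPM in WT. KO replicate 2 came close to the lowest WT library, without overlap (log2 -0.31, SE 0.113, unadjusted p = 0.0180 and adjusted p = 0.307 by edgeR). Birc5 had 424, 429.6 and 417 CPM in KO and 502, 475 and 549 CPM in WT, with the 3 KO libraries close together below the WT range (log2 -0.27, SE 0.101, adjusted p = 0.330 by edgeR). Aurka, the Aurora kinase of spindle poles, had 166, 182 and 159.8 CPM in KO and 207, 201 and 202 CPM in WT, again without overlap (log2 -0.26, SE 0.098, adjusted p = 0.322 by edgeR). Plk1, the Polo kinase, averaged 235 ± 15.1 CPM in KO and 254 ± 17.2 CPM in WT (SD, n = 3 each), and its groups overlapped (log2 -0.11, adjusted p = 0.721 by edgeR).

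Of the pair that marks the mitotic chromosome, Top2a, the topoisomerase that untangles sister DNA, had 945, 1204 and 967 CPM in KO and 1206, 1313 and 1134 CPM in WT. KO replicates 1 and 3 were below every WT library and KO replicate 2 lay beside WT replicate 1 (log2 -0.23, SE 0.124, adjusted p = 0.492 by edgeR). Mki67, whose protein coats mitotic chromosomes and is used as a stain for cycling cells, had 3677, 5382 and 4160.4 CPM in KO and 4760.0, 5149 and 4842 CPM in WT. KO replicate 2 was the highest of all 6 libraries and KO replicate 1 the lowest (log2 -0.16, SE 0.142, 95% interval -0.47 to 0.15, adjusted p = 0.717 by edgeR).

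Centromere and kinetochore genes had a median log2 of -0.26 over 6 genes, which ran from -0.34 to -0.15. Spc25, a subunit of the Ndc80 complex that grips microtubules, had 111, 110.0 and 104 CPM in KO and 129, 144 and 137 CPM in WT. The KO libraries were close together and all under the WT libraries (log2 -0.34, SE 0.098, unadjusted p = 0.0054, adjusted p = 0.206 by edgeR and 0.0443 by DESeq2). Its partners behaved less evenly across libraries. Ndc80 had 83.3, 107 and 75.7 CPM in KO and 99.1, 103 and 107 CPM in WT (log2 -0.22, adjusted p = 0.551 by edgeR). Nuf2 had 147, 160.3 and 152 CPM in KO and 163, 184 and 164 CPM in WT (log2 -0.15, adjusted p = 0.582 by edgeR). The groups of Nuf2 did not overlap, while KO replicate 2 was within the WT range for Ndc80. Cenpf, a large protein of the outer kinetochore, had 279, 380.3 and 285 CPM in KO and 364, 430.2 and 388 CPM in WT, so KO replicate 2 was above the lowest WT library (unadjusted p = 0.0350 and adjusted p = 0.372 by edgeR). The kinetochore motor Cenpe had 206, 269 and 194 CPM in KO and 257, 318 and 255 CPM in WT, with the same overlap (log2 -0.31, adjusted p = 0.411 by edgeR). Cenpa, the histone H3 variant of centromeres, had 271, 287 and 262 CPM in KO and 300.1, 288 and 334 CPM in WT, and the KO and WT replicates 2 lay next to each other (log2 -0.17, adjusted p = 0.556 by edgeR).

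Kinesins and spindle proteins had a median log2 of -0.25 over 9 genes. In 4 of the 9 every KO library was below every WT library, as in 7.91% of all genes. Prc1, which bundles the microtubules of the central spindle, had 289, 388 and 323 CPM in KO and 427, 443 and 386 CPM in WT. KO replicate 2 lay just above the lowest WT library and the other KO libraries well below it (log2 -0.33, SE 0.126, unadjusted p = 0.0236 and adjusted p = 0.330 by edgeR). Kif23, the kinesin of the central spindle that works with Prc1 in cytokinesis, had 158, 203 and 171 CPM in KO and 217, 241 and 205 CPM in WT. The groups did not overlap, with KO replicate 2 just under WT replicate 3 (log2 -0.32, SE 0.119, unadjusted p = 0.0222 and adjusted p = 0.326 by edgeR). Nusap1, a microtubule-binding protein of the spindle, had 373, 468 and 401 CPM in KO and 498, 542 and 469.5 CPM in WT, again with replicate 2 at the edge (log2 -0.28, adjusted p = 0.372 by edgeR). Tpx2, which activates Aurka on the spindle, had 319, 358 and 320.1 CPM in KO and 400.2, 423 and 384 CPM in WT, without overlap (log2 -0.27, unadjusted p = 0.0212 and adjusted p = 0.322 by edgeR). The bipolar spindle motor Kif11 and the spindle assembly factor Dlgap5 both had a log2 of -0.25, with adjusted p of 0.469 and 0.468 by edgeR and overlapping groups. The microtubule depolymerase Kif2c averaged 80.4 ± 4.39 CPM in KO and 88.3 ± 1.74 CPM in WT (log2 -0.13, adjusted p = 0.646 by edgeR), without overlap. Hmmr, a spindle pole protein, had 174, 250.3 and 192 CPM in KO and 246, 237 and 208 CPM in WT, so that KO replicate 2 was the highest library of all 6 (log2 -0.17, adjusted p = 0.693 by edgeR). Kif20a, a kinesin of the midzone, also had its highest value in KO replicate 2, with 82.2, 110.0 and 80.3 CPM in KO and 96.6, 108 and 79.4 CPM in WT (log2 -0.06, adjusted p = 0.917 by edgeR).

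Spindle checkpoint genes had the median nearest to 0 of the 8 roles, with a median log2 of -0.08 over 5 genes and a range of -0.14 to -0.05. Bub1, a checkpoint kinase of the kinetochore, had 107, 142 and 108 CPM in KO and 118, 136 and 115 CPM in WT. KO replicate 2 was the highest of all 6 libraries, and the interval of the change spanned both directions (log2 -0.05, SE 0.132, 95% interval -0.34 to 0.24, adjusted p = 0.921 by edgeR). Mad2l1, which encodes the Mad2 protein that holds back Cdc20, had 129.5, 129 and 125 CPM in KO and 121, 128 and 149 CPM in WT. Its KO values fell inside the WT range (log2 -0.05, adjusted p = 0.892 by edgeR). Bub3, the partner that brings Bub1 and BubR1 to kinetochores, had 175, 164 and 167 CPM in KO and 182, 176 and 179 CPM in WT, with no overlap but a small distance (log2 -0.09, adjusted p = 0.766 by edgeR). BubR1, encoded by Bub1b, and the kinase Mps1, encoded by Ttk, had log2 changes of -0.14 and -0.08 with overlapping groups (adjusted p = 0.631 and 0.861 by edgeR). The difference between the checkpoint genes and the other members was not tested. In the fits without WT replicate 2, without KO replicate 3 and by library totals the log2 change of Bub1 was 0.035, 0.0069 and 0.083.

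Of the 8 roles, the securin and anaphase-promoting complex genes at the exit from mitosis had the lowest median, a log2 of -0.38 over 3 genes. Securin, encoded by Pttg1, holds the protease separase inactive until anaphase, and had 208, 198 and 210.1 CPM in KO and 265, 268 and 319.6 CPM in WT. All KO libraries lay below all WT libraries, with KO replicate 2 the lowest and WT replicate 3 the highest (log2 -0.47, SE 0.108, 95% interval -0.71 to -0.23). Its unadjusted p was 0.00119 and its adjusted p 0.140 by edgeR, against an adjusted p of 0.00292 by DESeq2 and 0.0277 by edgeR with no filter on low counts. Ube2c, the ubiquitin-conjugating enzyme of the anaphase-promoting complex, had 639, 661 and 684 CPM in KO and 839.9, 864 and 879.8 CPM in WT. Both groups were tight and far apart, at 661 ± 22.4 CPM in KO and 861 ± 20.1 CPM in WT (SD, n = 3 each), a ratio of 0.768. Its log2 change was -0.38 (SE 0.098, 95% interval -0.60 to -0.17), with an unadjusted p of 0.00251 and an adjusted p of 0.165 by edgeR and of 0.00239 by DESeq2. Cdc20, the activator of the complex, had 198, 214 and 182 CPM in KO and 233, 196 and 221 CPM in WT. WT replicate 2 was below KO replicate 1, and the groups overlapped (log2 -0.13, adjusted p = 0.702 by edgeR). Pttg1 lies on chromosome 11 from 43420250 to 43426251 and Ube2c on chromosome 2 from 164769898 to 164778822 (GENCODE M21, mm10).

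Both cytokinesis genes had KO replicates 1 and 3 below every WT library and KO replicate 2 inside the WT range. Anln, anillin, a scaffold of the contractile ring, had 174, 227 and 183 CPM in KO and 218, 259.7 and 230.1 CPM in WT (log2 -0.28, SE 0.125, unadjusted p = 0.0499 and adjusted p = 0.408 by edgeR). Ect2, the exchange factor that activates RhoA at the cleavage site, had 139, 184 and 138 CPM in KO and 165, 192 and 162 CPM in WT (log2 -0.17, adjusted p = 0.669 by edgeR).

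**Figure D3:**
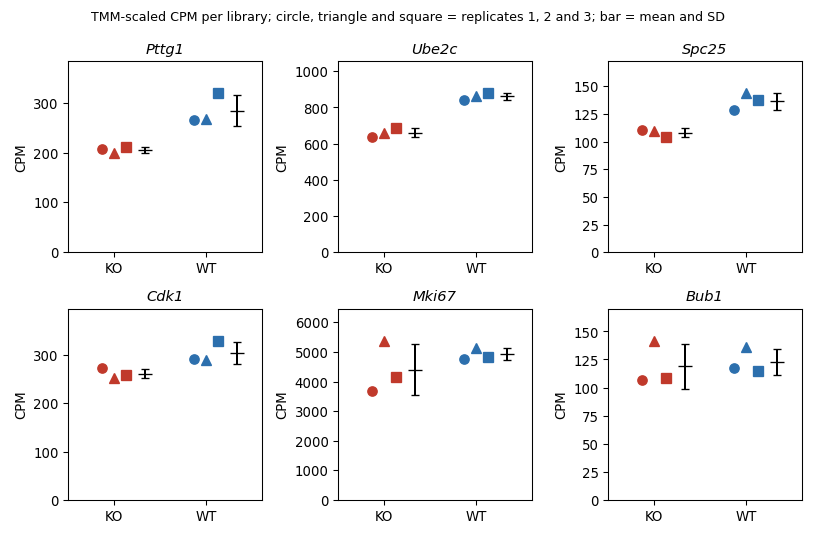
CPM of Pttg1, Ube2c, Spc25, Cdk1, Mki67 and Bub1 in each library, KO in red and WT in blue, with a circle, triangle or square for replicates 1, 2 and 3 and a bar for the mean and SD of each group; axes start at 0. Ube2c shows 661 ± 22.4 against 861 ± 20.1 CPM with no overlap, while the KO triangle of Mki67 at 5382 CPM lies above every WT mark.

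Per kilobase of transcript, Ube2c was the most abundant of the 38, at 684 ± 23.2 CPM per kb in KO and 891 ± 20.8 CPM per kb in WT (SD, n = 3 each). Birc5 was at 447 ± 6.85 CPM per kb in KO and 537 ± 39.5 CPM per kb in WT, and Mki67 at 438 ± 87.3 and 489 ± 20.4 CPM per kb in KO and WT. The libraries of Birc5 and Mki67 overlapped in level within each group. Pttg1 stood at 217 ± 6.70 CPM per kb in KO and 299.7 ± 32.4 CPM per kb in WT. The lowest levels were those of Mad2l1 at 16.9 and 17.5 and Ttk at 16.9 and 17.9 CPM per kb in KO and WT. Transcript length here is that of the main annotated coding transcript in GENCODE M21, and the isoform present in these cells was not measured.

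The distance of KO replicate 2 from the other KO libraries went with transcript length. Across the 38 genes, log2 of KO replicate 2 over the mean of KO replicates 1 and 3 had a Pearson r of 0.66 and a Spearman rho of 0.65 with log2 transcript length. Over all 13071 tested genes with a length the values were 0.23 and 0.24, and over the 3464 of them at 50 CPM or more, 0.41 and 0.53. Genes share their libraries and are not independent replicates. Long Mki67 (10.1 kb) and Cenpf (11.1 kb) stood 0.46 and 0.43 higher on the log2 scale in KO replicate 2 than in the other KO libraries. Short Cks2 (0.692 kb), Pttg1 (0.948 kb) and Ube2c (0.967 kb) differed by -0.13, -0.08 and -0.00. Cdk1 (4.38 kb, -0.07) and Mad2l1 (7.56 kb, 0.02) went against this order. In the 19 shorter members, up to 2.96 kb, KO replicate 2 had a median log2 of -0.10 relative to the WT mean and KO replicates 1 and 3 together -0.23. In the 19 longer ones these medians were -0.04 and -0.34. The change of KO against WT itself had an r of 0.16 and a rho of 0.06 with length across the 38. With the trend on transcript length removed from each library, 38 of 38 remained lower, against 46.1% of all genes, by a median of -0.21. There 13 were lower at an unadjusted p under 0.05, against 5.86% of all genes, and 0 were higher, against 7.45%. At an adjusted p under 0.05 by edgeR 0 of the 38 passed, where 0.0842% of all genes were lower and 0.0230% higher.

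**Figure D4:**
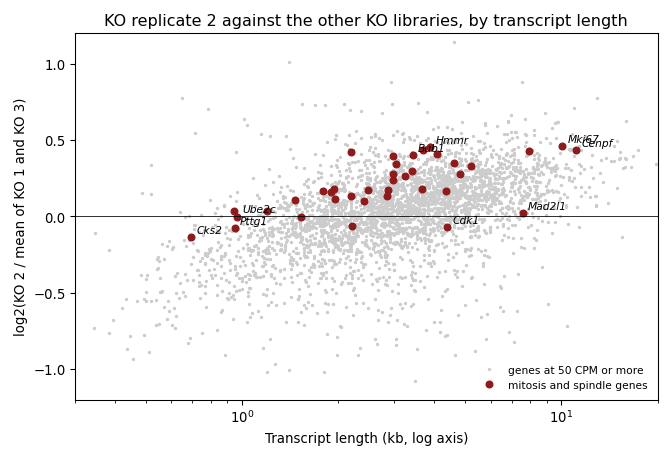
Log2 ratio of KO replicate 2 to the mean of KO replicates 1 and 3 (vertical axis) against transcript length in kb on a log axis, for the mitosis and spindle genes (dark red) and the genes at 50 CPM or more (grey; a few lie outside the axes). Short Cks2, Pttg1 and Ube2c lie at or below 0, and long Mki67 and Cenpf at 0.46 and 0.43.

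Mitotic genes outside the 38, taken from 7 lists with 141 genes in all, were lower in 109 cases and higher in 32, with a median log2 of -0.13. None passed an adjusted p under 0.05 by edgeR, and 19 were lower and 1 was higher at an unadjusted p under 0.05. Over all genes these shares were 5.98% and 6.25%, and 47.1% were below 0. DESeq2 called 4 of the 141, all lower, where 3.6% of the 8134 genes it gave an adjusted p were called lower. By library totals 71 of the 141 were lower, against 30.6% of all genes, with a median of -0.00 against 0.15 for all genes. On that scale 3 of the 141 were lower and 8 higher at an unadjusted p under 0.05 by edgeR, against 2.56% and 15.7% of all genes. Relative to the WT mean their median log2 level was -0.17, -0.02 and -0.21 in KO replicates 1, 2 and 3, so KO replicate 2 was again the KO library nearest to WT. Condensin, cohesin and separase genes were lower in 18 of 20 cases (median -0.18), further kinesins and spindle proteins in 23 of 27 (median -0.17) and further kinetochore genes in 27 of 33 (median -0.13). Entry and exit kinases and phosphatases were lower in 14 of 18 (median -0.16) and cytokinesis genes in 9 of 10 (median -0.12). Subunits and regulators of the anaphase-promoting complex went the other way in 11 of 17 cases, with a median of 0.11.

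Within that complex list the 2 genes with the smallest p were nonetheless lower. Fzr1, which encodes the late-mitotic activator Cdh1, had 828, 774 and 710.2 CPM in KO and 1048, 942 and 1034 CPM in WT (log2 -0.39, adjusted p = 0.197 by edgeR). Fbxo5, which encodes the inhibitor Emi1, had 184, 189 and 187 CPM in KO and 238, 217 and 241 CPM in WT (log2 -0.31, adjusted p = 0.232 by edgeR). Both showed no overlap between the groups. Cdc25b, a phosphatase that activates Cdk1, had 457, 610.1 and 513 CPM in KO and 632, 783 and 701 CPM in WT, with KO replicate 2 the nearest to WT (log2 -0.42, SE 0.132, adjusted p = 0.239 by edgeR), and Gtse1, of the same list, had a log2 of -0.24 (adjusted p = 0.382). Tfdp2, a dimer partner of E2F factors, had 946, 984 and 910.0 CPM in KO and 1145, 1354 and 1239 CPM in WT (log2 -0.40, SE 0.108, adjusted p = 0.187 by edgeR). Nfya, the subunit of NF-Y, had a log2 of -0.20 (adjusted p = 0.469), in a list of 16 transcription regulators of which 12 were lower (median -0.13). Further genes with the smallest p in their lists were the kinetochore gene Ska2 (log2 -0.38) and shugoshin Sgol1 (log2 -0.33), the kinesins Kif18a (log2 -0.38) and Kifc1 (log2 -0.33), the cohesin acetyltransferase Esco2 (log2 -0.29) and the condensin subunit Smc2 (log2 -0.22). Their adjusted p by edgeR ran from 0.262 to 0.503. In cytokinesis, Racgap1, the partner of Kif23, had 225, 251 and 229 CPM in KO and 276, 282 and 277 CPM in WT (log2 -0.24, adjusted p = 0.352 by edgeR), and the kinase Cit a log2 of -0.41 (adjusted p = 0.472).

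DNA replication and S phase genes were evenly divided in the comparison of all 6 libraries. Of 48 tested, 24 were lower and 24 higher, with a median log2 of -0.00, where 47.1% of all genes were lower. At an unadjusted p under 0.05 by edgeR, 1 was lower and 0 higher, against 5.98% and 6.25% of all genes, and 0 passed when adjusted. The median of the 48 relative to the WT mean was -0.02, 0.06 and -0.09 in KO replicates 1, 2 and 3. Without KO replicate 2, 34 of 48 were lower, with a median log2 change of -0.07, where 49% of all genes were lower. For KO replicate 3 alone against WT, 38 of 48 were lower, with a median of -0.09, where 46.7% of all genes were lower. By library totals 9 of 48 were lower, against 30.6% of all genes, with a median of 0.13 against 0.15 for all genes. Cdk2, the kinase of S phase entry, had 127, 137 and 120.0 CPM in KO and 151, 153 and 162 CPM in WT (log2 -0.28, adjusted p = 0.292 by edgeR), and the ribonucleotide reductase subunit Rrm2 had a log2 of -0.24 (adjusted p = 0.423). The difference between the S phase list and the 38 genes was not tested.

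Cell cycle inhibitors were not higher as a list. Of 12 listed, 11 were tested, with a median log2 of -0.23. Of these, 8 were lower and 3 higher, where 47.1% of all genes were lower. By edgeR 0 were called, and 3 were lower at an unadjusted p under 0.05, against 5.98% of all genes. DESeq2 called 1, lower, where 3.6% of the 8134 genes it gave an adjusted p were called lower. Btg2, an antiproliferative gene, had 391, 241 and 353 CPM in KO and 525, 604 and 573 CPM in WT. KO replicate 2 was the lowest here, and the groups did not overlap (log2 -0.79, SE 0.164, unadjusted p = 0.000641 and adjusted p = 0.114 by edgeR). Cdkn2d, an inhibitor of Cdk4 and Cdk6, had 204, 141 and 155 CPM in KO and 216, 199.5 and 228 CPM in WT (log2 -0.37, adjusted p = 0.324 by edgeR).

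**Figure D5:**
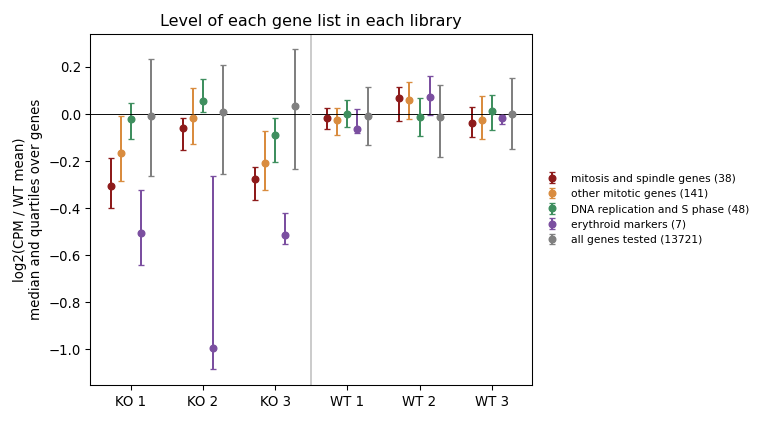
Median and quartiles over the genes of each list of log2 CPM relative to the WT mean, per library, for the 38 genes, the 141 other mitotic genes, the 48 S phase genes, 7 erythroid markers and all 13721 genes tested. The 38 genes stand at -0.31, -0.06 and -0.28 in KO replicates 1, 2 and 3, and the erythroid markers at -0.505, -0.996 and -0.517.

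Erythroid markers were lower in KO as the mitotic genes were, and the order of the KO libraries differed between markers. All 7 (Slc4a1, Alas2, Epor, Tfrc, Klf1, Gata1 and Ermap) were lower in KO with no overlap, as in 7.91% of all genes. At an unadjusted p under 0.05 by edgeR, 5 of the 7 were lower, against 5.98% of all genes, and 0 passed when adjusted. The summed level of the 7 was 19178 to 20970 CPM in KO and 28073 to 29334 CPM in WT. Klf1, an erythroid transcription factor, had 618, 389 and 583 CPM in KO and 830, 1038 and 762 CPM in WT. It was lowest in KO replicate 2, the KO library where the mitotic genes were highest, as were Alas2, Epor and Tfrc. Slc4a1 and Gata1 were lowest in KO replicate 3. Ermap was highest in KO replicate 2, with 1518, 1857 and 1480 CPM in KO replicates 1, 2 and 3. Macrophage markers were higher in KO in 6 of 6 cases, 1 at an unadjusted p under 0.05 by edgeR, against 6.25% of all genes. They summed to 1108 to 1341 CPM in KO and 957 to 1119.5 CPM in WT. Early progenitor markers overlapped, at 85.7 to 92.1 CPM in KO and 87.9 to 91.6 CPM in WT. Germinal centre B cells are another dividing cell of the spleen, and their 4 markers summed to 14.2 to 19.005 CPM in KO and 13.2 to 18.98 CPM in WT. B cell markers summed to 18.2 to 61.6 CPM in KO and 34.6 to 153 CPM in WT, plasma cell markers to 37.0 to 258 and 167 to 236, T cell markers to 15.2 to 29.9 and 14.8 to 23.3, neutrophil markers to 415 to 576 and 262 to 904, and platelet markers to 146 to 177 and 139.7 to 314 CPM in KO and WT. B cell, neutrophil and platelet markers each had a log2 change below 0 in 5 of 5 cases, against 47.1% of all genes. Their medians were -1.27, -0.30 and -0.60. Of these, 1 platelet marker was lower at an unadjusted p under 0.05 by edgeR, against 5.98% of all genes. Early progenitor, plasma cell and T cell markers were lower in 3 of 5, 2 of 4 and 3 of 5 cases. Of the T cell markers 1, Cd4, was higher at an unadjusted p under 0.05 by edgeR, against 6.25% of all genes. The part of all these markers, and of the sex-linked split, in the levels of the mitotic genes was not tested.

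Reads of some members cannot be told apart from those of a neighbour on the other strand, because the library kit does not mark strand. In GENCODE M21 the share of exon bases that overlap an opposite-strand gene was 29.3% for Kif20a (with Cdc23), 22.8% for Ube2c (with Tnnc2), 12.7% for Cdc25c, 12.5% for Ccna2 (with Exosc9), 11.1% for Prc1 (with Rccd1), 7.09% for Plk1, 4.24% for Nusap1 and 2.84% for Cdc20. Tnnc2 had 0 to 1 reads in any library. The genes of the other members shared no exon with an opposite-strand gene.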

How the data were processed

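Total RNA of spleen Ter119-positive cells was made into libraries with the Illumina TruSeq RNA kit version 2, per the labels' protocols. The authors deposited unnormalized read counts, as whole numbers per symbol, in 1 table. STAR 2.5, HTSeq, DESeq2 and build mm10 appear in the submitters' processing notes, with no role or order, and the annotation counted was not stated. Of 35275 lines, 27 whose symbol had become a date (0.340% to 0.383% of reads) were left out, and 122 lines that shared 52 symbols were summed.

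Genes were compared by edgeR 4.0.16 under R 4.3.3 (filterByExpr, TMM scaling, robust quasi-likelihood F test, KO over WT, no covariate), fitted on all 13721 genes that passed the filter, with Benjamini-Hochberg adjustment over them and calls at 0.05. CPM are counts over TMM-scaled library sizes; log2 changes carry edgeR's default prior count, their SE and 95% intervals come from the F statistic, and the biological coefficient of variation was 0.223. DESeq2 1.42.0 and limma-voom (limma 3.58.1) were alternatives, with other scalings, filters, libraries left out, the replicate number as a block and the 10 most abundant genes left out; removal of the trend on transcript length was added after the data were seen. The test was run on simulated data with changes larger than that of any member, so it was not checked for changes of their size. No library pair was within sampling noise (chi-square per gene 24.3 in the closest pair).

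The members, the other gene and marker lists and the promoter letters were chosen with earlier results of these data known. Named genes were all 38, Nfe2l2, Nqo1 and the 2 genes of smallest p in each further list; the checkpoint, erythroid and overlap remarks on single genes were chosen after their values were seen. The smallest two-sided p of an exact permutation test on 3 against 3 libraries is 0.1. Gene positions and lengths came from GENCODE M21 and promoters from RefSeq. An erythroid marker of the list is not reported here and was left out of its sums. Windows were not used for Ccna2, Tpx2, Aurkb, Dlgap5, Cdc25c, Kif20a and Incenp.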

Additional observations from a re-analysis of the deposited data

How the results depend on the processing

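Under 17 alternatives the median log2 change of the 38 genes ranged from -0.33 (without KO replicate 2) to -0.09 (library totals). Members called numbered 0 by edgeR with TMM, 3 by DESeq2, 1 by edgeR with no filter and 0 under the other alternatives, by edgeR or limma-voom. Members lower at an unadjusted p under 0.05 numbered 14, but 2 by library totals, 8 for KO replicate 3 alone and 4 to 22 with single libraries left out: 4 without KO replicate 3, 7 without KO replicate 1, WT replicate 1 or WT replicate 2, 12 without WT replicate 3 and 22 without KO replicate 2.

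Over all genes, 3 were called (3 lower, 0 higher), against 10 with DESeq2 size factors, 8 with upper-quartile scaling, 33 by library totals (9 lower, 24 higher), 385 by DESeq2, 0 by limma-voom (862 lower and 819 higher at an unadjusted p under 0.05), 228 with no filter, 9 at 1 CPM in 3 libraries, 6 for KO replicate 3 alone and 14 with the length trend removed. With single libraries left out the count was 0 to 14: 0 by edgeR without WT replicate 2 (unadjusted, 683 lower and 655 higher), 1 without KO replicate 2, 12 without KO replicate 1 and 14 without KO replicate 3.

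Single members turned to a log2 above 0 by library totals (Cdc20 0.0029, Plk1 0.017, Bub1 0.083, Bub3 0.0425, Mad2l1 0.081, Ttk 0.051, Kif20a 0.070, Cks2 0.012). With single libraries left out Bub1 ran from -0.207 (without KO replicate 2) to 0.035 (without WT replicate 2), Ttk from -0.154 to 0.048 and Kif20a from -0.23 to 0.048 in the same fits, and Mad2l1 from -0.113 (without WT replicate 1) to 0.040 (without WT replicate 3). Bub1 was also above 0 without KO replicate 1 (0.0013) or KO replicate 3 (0.0069), and Kif20a without KO replicate 3 (0.013). Of the other member values under alternatives, 627 kept their direction and side of the threshold, and 4 passed it. The cause was not tested.

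Same-numbered KO and WT libraries had low correlations of their deviations, of 0.0985, 0.0438 and 0.0310 for replicates 1, 2 and 3. For KO replicates 1 and 2 the same-numbered WT library correlated best, while KO replicate 3 correlated best with WT replicate 2 (0.0353). Whether replicate numbers pair the libraries is therefore not settled. With the replicate block, 9 genes were called over all genes, 0 of the 38 by edgeR, with 17 of the 38 lower at an unadjusted p under 0.05 (6.43% of all genes) and a median of -0.22.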
